A study of Mus musculus with 15 samples.

Results

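Keratins are the intermediate filament proteins of epithelial cells, and the 6 described here are Krt8, Krt18, Krt7, Krt19, Krt5 and Krt20, taken by symbol from a deposited table of 19602 genes in mouse kidney. The table holds 13 keratin genes in all, of 53 protein-coding keratin genes in the GENCODE M21 annotation. All 6 passed the filter on low values used for the tests (3 or more libraries with a normalised count of 10 or above), as did 14651 genes of the table. 4 of them (Krt8, Krt18, Krt7 and Krt19) are keratins of simple, single-layered epithelia, and 2 (Krt5 and Krt20) are used as markers of the urothelium, the lining of the renal pelvis and the lower tract.

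RNA came from PBS-perfused kidneys, as 15 libraries, of mice of 6 to 8 weeks, of both sexes, with kidneys taken at day 14 after 1 intraperitoneal injection. G3 folic acid (n = 4) and G3 vehicle (n = 4) were Tert-/- mice of generation 3, which lack the reverse transcriptase of telomerase, given 125 mg/kg folic acid or 200 µl of 0.3 M NaHCO3. WT folic acid (n = 3) and WT vehicle (n = 4) were Tert+/+ mice given the same injections. Folic acid at such doses injures tubules, and the comparison by genotype asks how telomerase loss bears on that injury. Values are normalised counts of 3' end reads (QuantSeq), in which 1 read is worth 0.895 to 1.13, and library numbers such as G3 vehicle 1 are names only.

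Keratin filaments are built from pairs of 1 acidic (type I) and 1 basic (type II) keratin. Krt8 (type II) pairs mainly with Krt18 (type I) in tubules and ducts, and both are known to be made in larger amounts by injured tubule cells. Krt7 (type II) and Krt19 (type I) belong to collecting duct, urothelium and other ductal cells. Krt5 (type II) marks basal cells of the urothelium, and Krt20 (type I) its superficial umbrella cells, while Krt20 is also known from injured proximal tubules of the mouse.

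The 6 genes lie in the 2 keratin clusters of the mouse genome (GRCm38, GENCODE M21). On chromosome 15 are Krt7 (chr15:101411043-101430313, plus strand), Krt5 (chr15:101707070-101712898, minus strand), Krt8 (chr15:101996698-102004482, minus strand) and Krt18 (chr15:102028180-102032027, plus strand). Krt18, though a type I gene, thus neighbours its partner Krt8, and their starts face away from each other with 23.7 kb between the gene bodies. On chromosome 11 are Krt20 (chr11:99428403-99438150, minus strand) and Krt19 (chr11:100140810-100148665, minus strand). Krt7 overlaps the antisense gene Gm671, Krt8 the lincRNA gene Gm36026 and Krt5 the miRNA gene Gm44323, each on the opposite strand, and the kit keeps the strand. Krt8 has a processed pseudogene, Krt8-ps, on chromosome 7, and reads shared with it cannot be told apart here.

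The promoters of Krt18, Krt5, Krt20 and Krt8 are shown for the comparisons described below, Krt18 and Krt5 for their relation to urothelial RNA, Krt20 for its relation to injury RNA and Krt8 as the partner of Krt18. Each runs from 250 bases before to 50 after the start of the RefSeq gene (GRCm38.p6), 5′ to 3′ on the gene's strand. Krt18 is chr15:102027966-102028265 (plus), Krt5 chr15:101712856-101713155 (minus), Krt20 chr11:99438104-99438403 (minus) and Krt8 chr15:102004293-102004592 (minus). Capitals mark matches to TATAAA on the gene's strand (the core promoter box) and to GGGNGTGG (sites of the KLF family of transcription factors, either strand). TGANTCA (AP-1, either strand) and GGGCGG (a GC box, either strand) were also searched and have no match in these 4 windows.
Krt18 promoter: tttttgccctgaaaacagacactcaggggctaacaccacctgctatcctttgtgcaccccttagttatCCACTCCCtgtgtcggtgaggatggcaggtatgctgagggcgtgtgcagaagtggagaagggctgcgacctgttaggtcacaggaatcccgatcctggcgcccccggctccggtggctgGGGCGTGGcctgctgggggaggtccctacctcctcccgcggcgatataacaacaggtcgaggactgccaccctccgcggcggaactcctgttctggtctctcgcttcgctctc
Krt5 promoter: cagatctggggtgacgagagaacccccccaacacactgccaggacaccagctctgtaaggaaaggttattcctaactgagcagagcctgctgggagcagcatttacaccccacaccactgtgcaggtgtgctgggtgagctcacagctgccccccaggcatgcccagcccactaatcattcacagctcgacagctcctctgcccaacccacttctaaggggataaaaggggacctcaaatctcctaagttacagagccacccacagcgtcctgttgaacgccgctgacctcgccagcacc
Krt20 promoter: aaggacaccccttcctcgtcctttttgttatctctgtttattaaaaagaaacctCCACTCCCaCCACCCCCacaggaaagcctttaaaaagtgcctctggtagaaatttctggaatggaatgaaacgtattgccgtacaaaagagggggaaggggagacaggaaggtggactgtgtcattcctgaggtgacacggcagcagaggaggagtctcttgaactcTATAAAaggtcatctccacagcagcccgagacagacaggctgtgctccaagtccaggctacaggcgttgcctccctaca
Krt8 promoter: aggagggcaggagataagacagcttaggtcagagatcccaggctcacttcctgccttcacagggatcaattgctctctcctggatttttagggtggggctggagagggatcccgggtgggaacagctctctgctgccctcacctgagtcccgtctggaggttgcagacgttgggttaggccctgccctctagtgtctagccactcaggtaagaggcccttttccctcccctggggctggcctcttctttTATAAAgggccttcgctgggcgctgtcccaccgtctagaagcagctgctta
A TATA box stands in the Krt20 window at position -29 from the annotated start. In the Krt8 window the same letters begin at position -1, across the RefSeq start, while the GENCODE gene begins further upstream at chr15:102004482. Of 32851 RefSeq windows of this length 8.32% hold these letters. KLF letters stand in those of Krt18 and Krt20 (17.6% of windows). In the Krt7 window only the GC box was found, which 35.7% of windows hold, and 7.81% hold the AP-1 letters. A match is a run of letters and says nothing of binding in these kidneys.

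Libraries held 5014684 to 6609307 reads (median 6091019). Tert RNA was low in all groups, at 6.196 ± 3.32 in G3 folic acid, 8.30 ± 5.20 in G3 vehicle, 9.002 ± 3.99 in WT folic acid and 12.1 ± 8.65 in WT vehicle (SD, n = 4, 4, 3 and 4). Which part of Tert is missing was not stated in the labels, so these 3' end reads do not check them. Xist and Y-linked RNA went against the labelled sex in 10 of 15 libraries, and G3 folic acid 4 and WT vehicle 2 held both. Y-linked RNA, as a share of the highest library, was 0.0173 to 0.800 in G3 folic acid, 0.00113 to 0.00873 in G3 vehicle, 0.0110 to 0.0340 in WT folic acid and 0.327 to 1 in WT vehicle, so sex and group cannot be told apart. Of 8 genes known to be higher in male mouse kidney, 8 were lower in WT folic acid than in WT vehicle and 8 were lower in G3 vehicle than in WT vehicle (limma). In the other direction, all 8 lay above 0 with folic acid in G3 (median log2 3.23, 1 called). All 8 also lay above 0 between G3 and WT after folic acid (median log2 3.42, 2 called). For the difference of the folic acid effects 8 were called higher. Title numbers fall into 3 series that partly follow the groups. G3 folic acid shares its series with vehicle libraries only through G3 vehicle 4 and WT vehicle 4, while WT folic acid shares one with WT vehicle 1 to 3, and G3 vehicle 1 to 3 stand alone. In WT folic acid 1, Gm42418 took 23.0% of reads, against 4.85 to 8.15% in the other libraries. The kidney genes Umod, Slc12a1, Slc12a3 and Calb1 had reads in every library.

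In none of the 6 comparisons did a keratin pass the test across all genes. The limma fit used log2(normalised count + 1), a term per group over all 15 libraries and Benjamini-Hochberg (BH) adjustment over 14651 genes. Folic acid in G3 gave 0 of 6 keratins called (background 0.273% of genes), folic acid in WT 0 (5.06%), G3 against WT after folic acid 0 (2.30%) and after vehicle 0 (2.90%). Averaged over the genotypes the folic acid effect gave 0 (1.79%), and the difference between the folic acid effects of G3 and WT gave 0 (3.82%). At unadjusted p under 0.05 the counts in the same order were 1, 0, 1, 0, 2 and 1 of 6, against 13.8, 23.1, 20.4, 17.9, 18.7 and 16.8% of all genes. The count test of edgeR called 0 in each comparison, and DESeq2 called 1, Krt5 with folic acid in G3. The shares above are those of limma, and the share of all genes called by DESeq2 is not given, so this 1 call lacks a background. Over the alternatives described below, other than leaving out 1 library, 0 to 387 genes of the table were called in that comparison. In bulk tissue, fewer cells of a type and less RNA per cell cannot be told apart, and 3 or 4 libraries a group limit the precision of every value below.

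**Figure D1:**
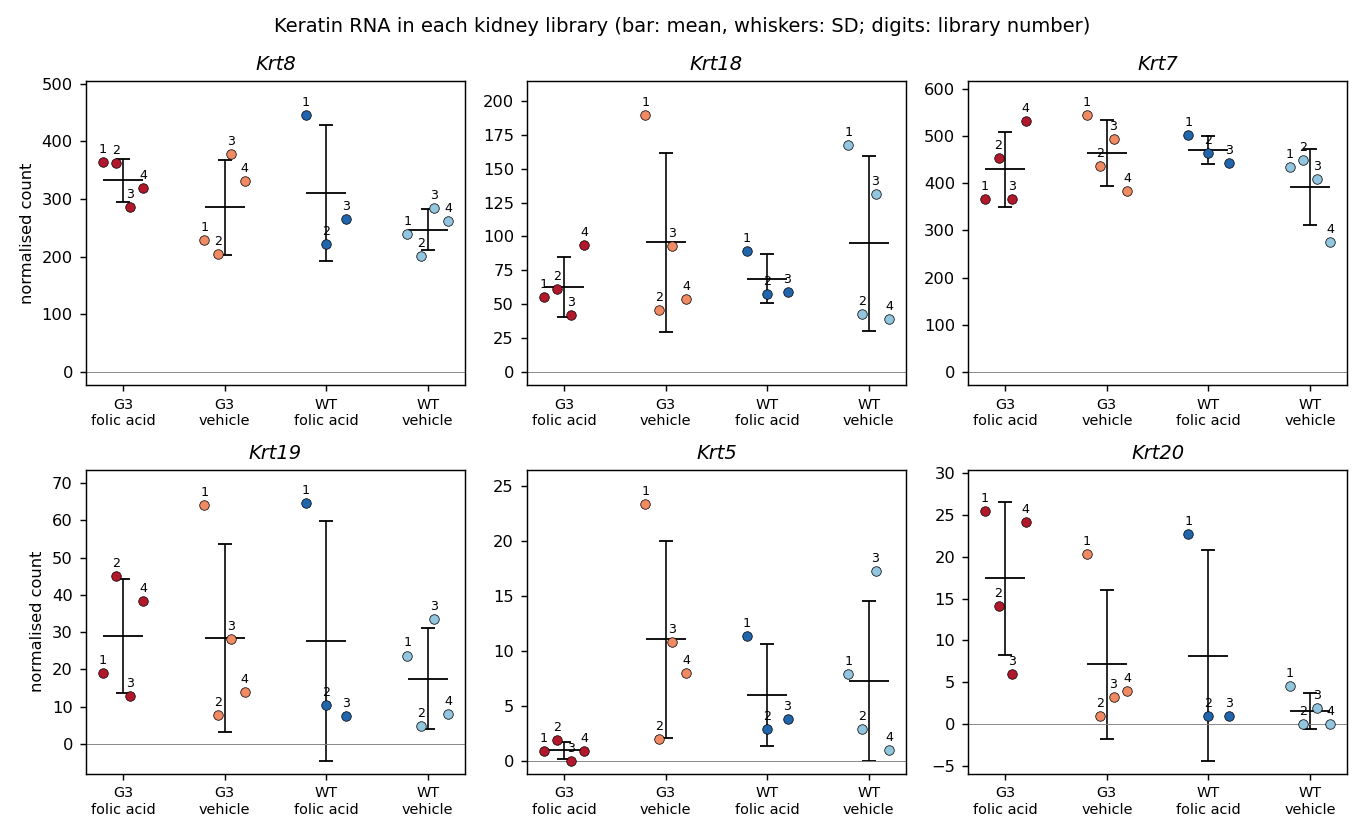
Normalised counts (y axis, linear) of the 6 keratins in each library, with groups along the x axis. Points are libraries with their numbers, the bar is the group mean and whiskers are ± 1 SD. Krt5 is at 0 to 1.88 in G3 folic acid, and Krt20 is above 20 in G3 folic acid 1 and 4, G3 vehicle 1 and WT folic acid 1.

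Krt8, the type II keratin of simple epithelia, had 364, 362, 287 and 318 normalised counts in G3 folic acid 1 to 4, against 229, 204, 378 and 332 in G3 vehicle 1 to 4. It had 445, 222 and 265 in WT folic acid 1 to 3, against 239.8, 201, 284 and 262 in WT vehicle 1 to 4. WT folic acid 1 was the highest of all libraries, and all 4 groups overlapped. Means were 333 ± 37.1 in G3 folic acid, 286 ± 82.5 in G3 vehicle, 310 ± 118 in WT folic acid and 247 ± 35.4 in WT vehicle (SD), with G3 folic acid highest, then WT folic acid, then G3 vehicle, and no neighbours in this order apart beyond their spread. Averaged over genotypes Krt8 was log2 0.27 higher after folic acid (95% interval -0.063 to 0.60, limma adjusted p = 0.373). The effect was log2 0.26 (-0.19 to 0.71, limma adjusted p = 0.657) in G3 and 0.28 (-0.21 to 0.76, adjusted p = 0.5004) in WT. Without WT folic acid 1 the value in WT was log2 -0.013, so the WT difference lay in that 1 library.

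Krt18, the type I partner of Krt8, did not follow it. It had 55.4, 61.1, 42.0 and 93.9 in G3 folic acid 1 to 4, against 189, 45.9, 93.0 and 54.1 in G3 vehicle. In WT folic acid 1 to 3 it had 89.6, 57.6 and 59.1, against 167, 42.7, 131 and 39.0 in WT vehicle. The 2 vehicle groups each held libraries far apart (G3 vehicle 1 and WT vehicle 1 and 3 high, the rest lower). The folic acid libraries fell within the joint range of both vehicle groups, though G3 folic acid 3 (42.0) lay below the lowest G3 vehicle library (45.9). Folic acid gave log2 -0.42 in G3 (-1.40 to 0.56, limma adjusted p = 0.761) and -0.21 in WT (-1.27 to 0.85, adjusted p = 0.848), with intervals that hold changes in either direction. Over the 15 libraries Krt8 and Krt18 had r = 0.083 on the log2 scale (0.22 within groups). Within a library the ratio of the Krt8 to the Krt18 normalised count was 3.39 to 6.83 in G3 folic acid, 1.21 to 6.13 in G3 vehicle, 3.85 to 4.96 in WT folic acid and 1.43 to 6.72 in WT vehicle. This ratio of unequal 3' end yields is no molar ratio, and is given for its variation between libraries.

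Krt7, a type II keratin of ducts, varied least of the 6, with the highest library 1.98 times the lowest. It had 366, 454, 366 and 531 in G3 folic acid 1 to 4, against 543, 436, 493 and 383 in G3 vehicle, and 503, 465 and 443 in WT folic acid 1 to 3, against 434, 449, 409 and 275 in WT vehicle. WT vehicle 4 was the lowest library, and all groups overlapped. The folic acid effect was log2 -0.12 (-0.46 to 0.23, limma adjusted p = 0.822) in G3 and 0.29 (-0.088 to 0.66, adjusted p = 0.350) in WT, and the difference between these effects was -0.40 (-0.92 to 0.11, limma adjusted p = 0.426). With the Y-linked share of each library as a term the sign turned in both genotypes, to 0.12 in G3 and -0.12 in WT.

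Krt19, a type I keratin of ducts and urothelium, spread 13.6-fold between libraries. Its values were 19.1, 45.1, 13.0 and 38.5 in G3 folic acid 1 to 4, against 64.1, 7.82, 28.1 and 14.0 in G3 vehicle. In WT they were 64.7, 10.6 and 7.63 in WT folic acid 1 to 3, against 23.7, 4.74, 33.6 and 7.99 in WT vehicle. G3 folic acid 2 and 4, G3 vehicle 1 and WT folic acid 1 stood high in their groups, and all groups overlapped. Folic acid gave log2 0.26 in G3 (-1.25 to 1.76, limma adjusted p = 0.925) and 0.37 in WT (-1.26 to 1.99, adjusted p = 0.822). Leaving out WT folic acid 1 turned the WT value to log2 -0.54.

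**Figure D2:**
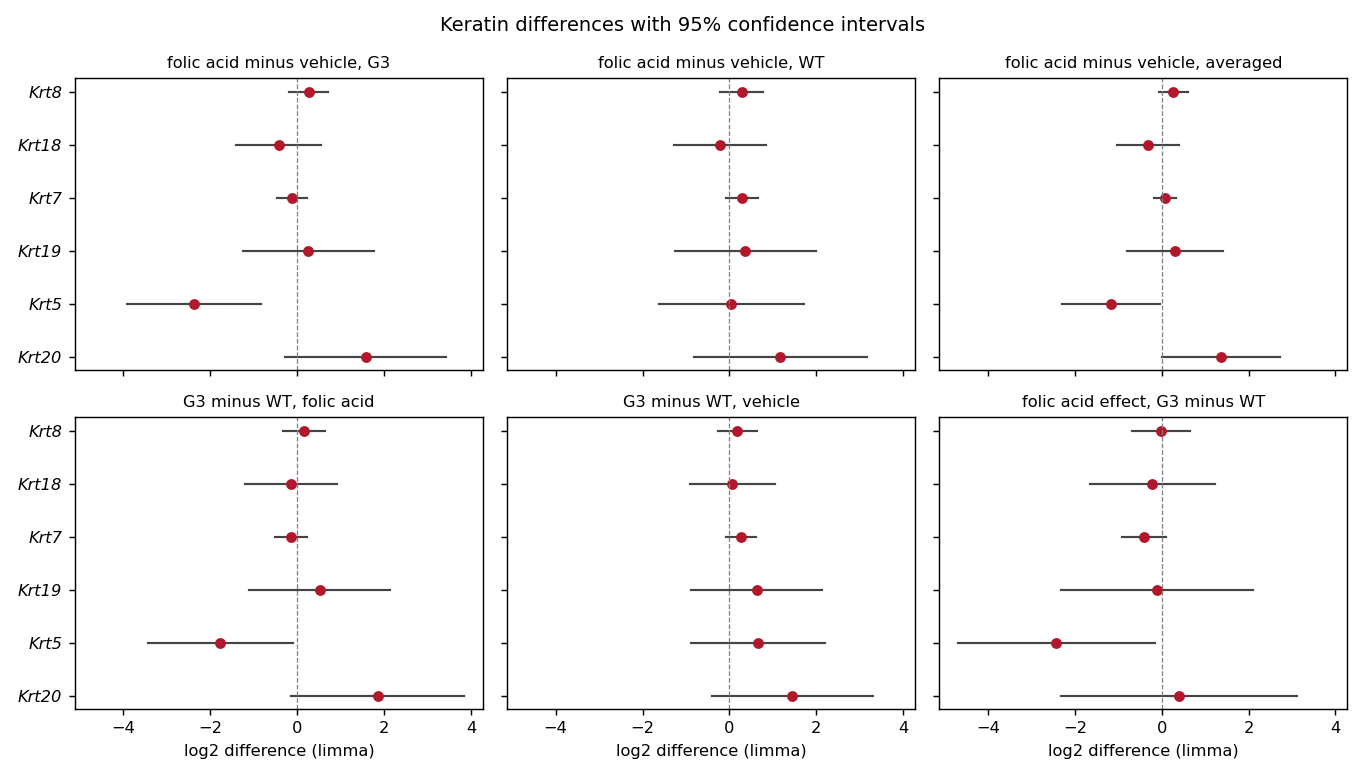
Log2 differences of the 6 keratins (y axis) in the 6 comparisons, as log2(normalised count + 1) of the first-named group minus the second (x axis). Points are limma estimates and lines their 95% intervals, unadjusted. The intervals of Krt5 lie below 0 for folic acid in G3 (-3.92 to -0.84), G3 against WT after folic acid (-3.44 to -0.11), the averaged effect (-2.30 to -0.034) and the difference of effects (-4.70 to -0.16), that of Krt20 lies above 0 for the averaged effect (0.012 to 2.73), and no keratin has an adjusted p under 0.05.

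Krt5, the basal urothelial keratin, was near the limit of detection in G3 folic acid, at 0.908, 1.88, 0 and 0.895 in libraries 1 to 4 (1, 2, 0 and 1 reads). G3 vehicle 1 to 4 had 23.4, 1.95, 10.8 and 8.02, WT folic acid 1 to 3 had 11.3, 2.88 and 3.81, and WT vehicle 1 to 4 had 7.92, 2.84, 17.3 and 0.999. Summed over libraries this was 4 reads in G3 folic acid, 43 in G3 vehicle, 17 in WT folic acid and 29 in WT vehicle. G3 folic acid lay wholly below G3 vehicle, though the highest G3 folic acid library and the lowest G3 vehicle library each held 2 reads, and wholly below WT folic acid. Groups failed to overlap in this direction for 3.77% of genes with folic acid in G3 and for 9.44% of genes between G3 and WT after folic acid. G3 folic acid overlapped WT vehicle, where library 4 had 1 read.

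The Krt5 difference with folic acid in G3 was log2 -2.38 (SE 0.73, 95% interval -3.92 to -0.84, limma adjusted p = 0.144). On the reads edgeR gave log2 -3.38 (adjusted p = 0.11) and DESeq2 -3.57 (adjusted p = 0.0311), and over all alternatives other than leaving out 1 library the adjusted p ran from 0.0311 to 1. Leaving out each library in turn gave log2 -2.94 to -1.92 and a limma adjusted p of 0.0950 to 0.323. With the Y-linked share of each library as a term the G3 effect was log2 -2.26 (limma adjusted p = 0.485). In WT the folic acid effect was log2 0.044 (-1.62 to 1.71, limma adjusted p = 0.983), and the difference of the 2 effects was -2.43 (-4.70 to -0.16, limma adjusted p = 0.257). After folic acid Krt5 was log2 -1.77 in G3 relative to WT (-3.44 to -0.11, limma adjusted p = 0.217), and after vehicle 0.65 (-0.89 to 2.20, adjusted p = 0.692). The G3 and WT folic acid libraries lie in different title number series, and with the series as a term the first of these turned to log2 0.33. The sum of 5 uroplakins, for which the groups overlap, was 17.98 to 104 in G3 folic acid, 17.6 to 505 in G3 vehicle, 79.1 to 104 in WT folic acid and 31.3 to 285 in WT vehicle. With the mean uroplakin level of each library as a term, chosen after seeing the data, the Krt5 effect in G3 was log2 -1.69 (limma adjusted p = 0.137).

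Krt20, the umbrella cell keratin, had its 3 highest libraries after folic acid, but was not high in all libraries so treated. It had 25.4, 14.1, 5.99 and 24.2 in G3 folic acid 1 to 4, against 20.3, 0.977, 3.25 and 4.01 in G3 vehicle. In WT folic acid 1 to 3 it had 22.7, 0.960 and 0.953, against 4.52, 0, 1.92 and 0 in WT vehicle, where 2 libraries had no read. G3 vehicle 1 overlapped G3 folic acid, and WT folic acid 2 and 3 fell among the WT vehicle libraries. The reads summed to 76 in G3 folic acid, 28 in G3 vehicle, 22 in WT folic acid and 6 in WT vehicle.

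Averaged over genotypes, Krt20 was log2 1.37 higher after folic acid (0.012 to 2.73, limma adjusted p = 0.263). The effect was log2 1.57 (-0.27 to 3.42, limma adjusted p = 0.457) in G3 and 1.16 (-0.83 to 3.16, adjusted p = 0.488) in WT, and in WT it was -0.034 without WT folic acid 1. Without G3 vehicle 1 the G3 effect was log2 2.23 (limma adjusted p = 0.278). G3 stood log2 1.86 above WT after folic acid (-0.13 to 3.85, limma adjusted p = 0.279) and 1.45 above WT after vehicle (-0.39 to 3.29, adjusted p = 0.413). Without WT folic acid 1 the first of these was 3.06 (limma adjusted p = 0.0600), and without G3 vehicle 1 the second was 0.80.

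Krt18 and Krt5 went with urothelial RNA from library to library. A urothelial score was the mean log2(normalised count + 1) of the 15 genes of a urothelium list that are in the table and are not keratins. Of 18 relations tested (6 keratins with urothelial, injury and collecting duct scores), BH-adjusted, Krt18 had Pearson r = 0.94 and Spearman rho = 0.93 with the urothelial score (adjusted p = 0.00018 for each by permutation, where 1e-05 is the smallest unadjusted p of 100000 permutations). Leaving out the 2 libraries farthest from the median score, G3 vehicle 1 and 2, gave r = 0.92, and within groups r was 0.94. Krt5 had r = 0.81 and rho = 0.67 (permutation adjusted p = 0.00306 and 0.0439), r = 0.77 without those 2 libraries and 0.87 within groups. For Krt19 r was 0.71 (permutation adjusted p = 0.0181, rho = 0.68 with adjusted p = 0.0439), falling to 0.60 without them. Krt7 had r = 0.61 (permutation adjusted p = 0.0491), while rho = 0.62 did not pass (adjusted p = 0.0598).

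Neither Krt20 nor Krt8 showed such a relation over all libraries, with r = 0.33 (permutation adjusted p = 0.309) and r = 0.13 (adjusted p = 0.713). Within groups Krt20 had r = 0.69 with the urothelial score. Of the 5 uroplakins alone, a subset taken after seeing the values and so described without a test, the mean had r = 0.92 with Krt18, 0.80 with Krt5, 0.66 with Krt19, 0.58 with Krt7, 0.25 with Krt20 and 0.052 with Krt8. Krt20 thus went with the urothelial genes within groups but showed no clear relation over all 15 libraries, and the reason was not tested. Krt18, a keratin of simple epithelia, had the highest r of the 6 with the urothelial genes.

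Krt20 was high in the libraries with high tubular injury genes and also in G3 vehicle 1, where they were not. An injury score, the mean log2(normalised count + 1) of 18 genes that include Havcr1 (kidney injury molecule 1) and Lcn2 (a secreted iron-siderophore binder), fell into separate clusters. It was 7.45 or more in 4 libraries, G3 folic acid 1, 2 and 4 and WT folic acid 1, and 6.37 or less in the other 11. The 4 libraries held, in that order, Krt20 at 25.4, 14.1, 24.2 and 22.7, and Krt8 at 364, 362, 318 and 445. In the other 11 libraries Krt20 was 0 to 5.99 apart from G3 vehicle 1 with 20.3, and Krt8 was 201 to 378. A pooled correlation across such clusters is not given. The cut was placed at the largest gap in these same scores, so the 11 libraries were chosen after seeing the data. Within the 11 libraries Krt20 had r = 0.79 (permutation adjusted p = 0.0181) and rho = 0.73 (adjusted p = 0.0598) with the injury score, and r = 0.73 without G3 folic acid 3 and WT vehicle 4. Krt8 had r = 0.48 there (permutation adjusted p = 0.251), Krt19 0.48 (adjusted p = 0.251), Krt7 0.30 (adjusted p = 0.477), Krt18 0.20 (adjusted p = 0.661) and Krt5 0.13 (adjusted p = 0.734). These 11 libraries come from all the groups, and the permutations were not held within groups. The mean injury score was 6.06 in G3 vehicle and 5.59 in WT vehicle. In WT vehicle 1 to 4 the scores were 5.79, 5.42, 5.78 and 5.38, with Krt20 at 4.52, 0, 1.92 and 0. In G3 vehicle 1 to 4 they were 6.13, 5.84, 6.04 and 6.24, with Krt20 at 20.3, 0.977, 3.25 and 4.01. There library 4 had the highest score and library 1 the highest Krt20. No r within groups was taken for this score, so group differences and a relation between libraries were not separated.

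With the collecting duct score over 15 libraries no keratin passed. Krt8 had r = -0.57 (permutation adjusted p = 0.0832), which was -0.28 without WT folic acid 1 and G3 folic acid 1. Krt5 had r = 0.51 (permutation adjusted p = 0.137), Krt7 0.44 (adjusted p = 0.218), Krt18 0.37 (adjusted p = 0.272), Krt20 -0.36 (adjusted p = 0.272) and Krt19 -0.087 (adjusted p = 0.757). All scores and keratins of a library share its RNA and its size factor, and the cause of these relations was not tested.

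**Figure D3:**
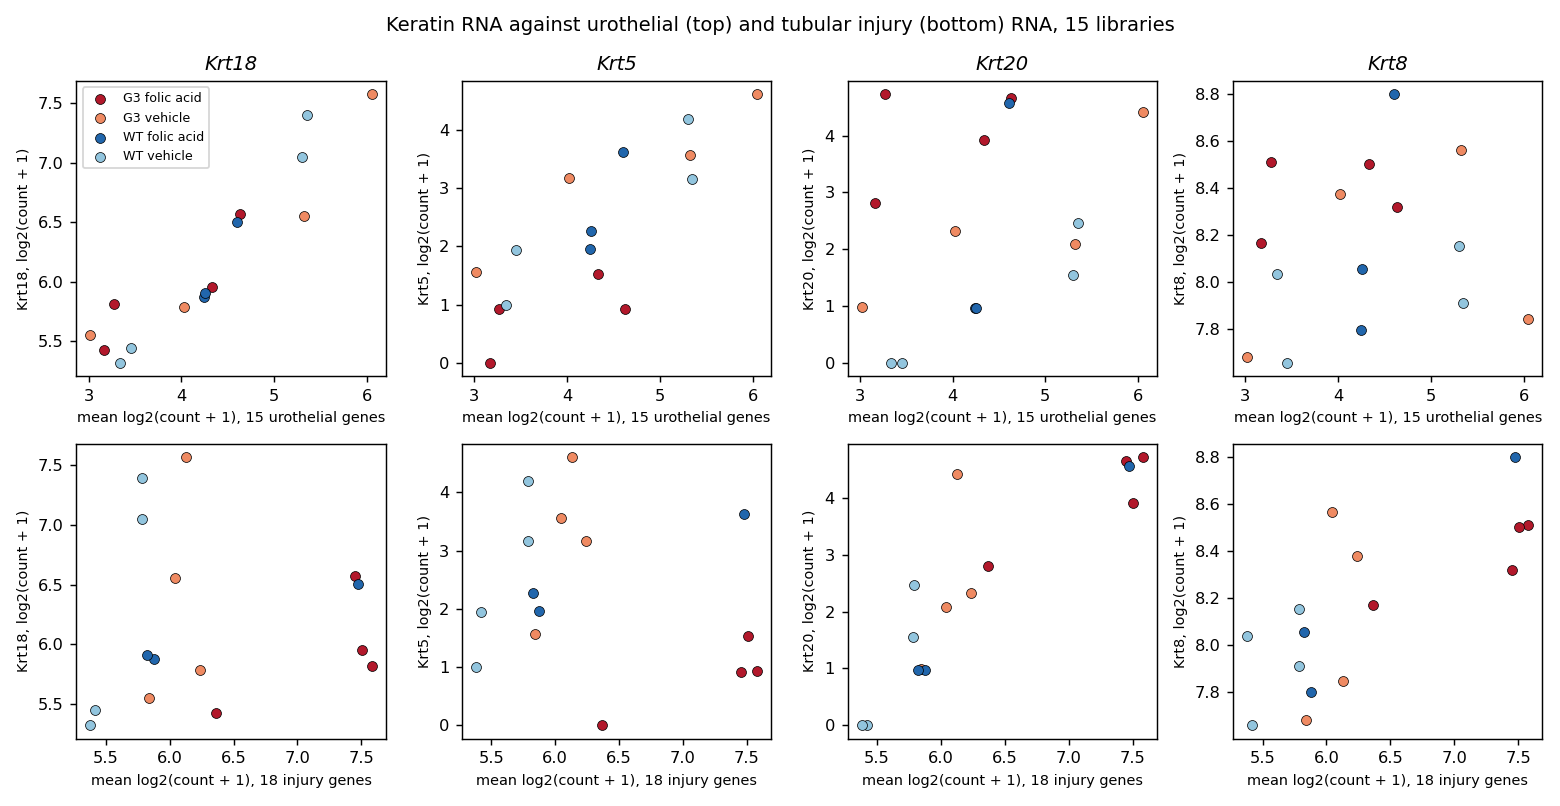
Keratin level, log2(normalised count + 1), of Krt18, Krt5, Krt20 and Krt8 (y axes) against the mean log2(normalised count + 1) of 15 urothelial genes (top row, x axis) and of 18 injury genes (bottom row, x axis). Each point is 1 of 15 libraries, coloured by group. Krt18 follows the urothelial score (r = 0.94), and the 4 libraries with an injury score of 7.45 or more hold Krt20 at 14.1 to 25.4 normalised counts.

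Among the keratins themselves, Krt19 had r = 0.82 with Krt20, 0.74 with Krt18 and 0.58 with Krt8 over the 15 libraries. Krt18 with Krt5 had r = 0.75, and Krt8 with Krt20 0.62. Krt5 with Krt20, both urothelial by label, had r = 0.083 over all libraries and 0.80 within groups. Within groups Krt19 had r = 0.88 with each of Krt5 and Krt20. These values are descriptions over 15 libraries that share groups.

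**Figure D4:**
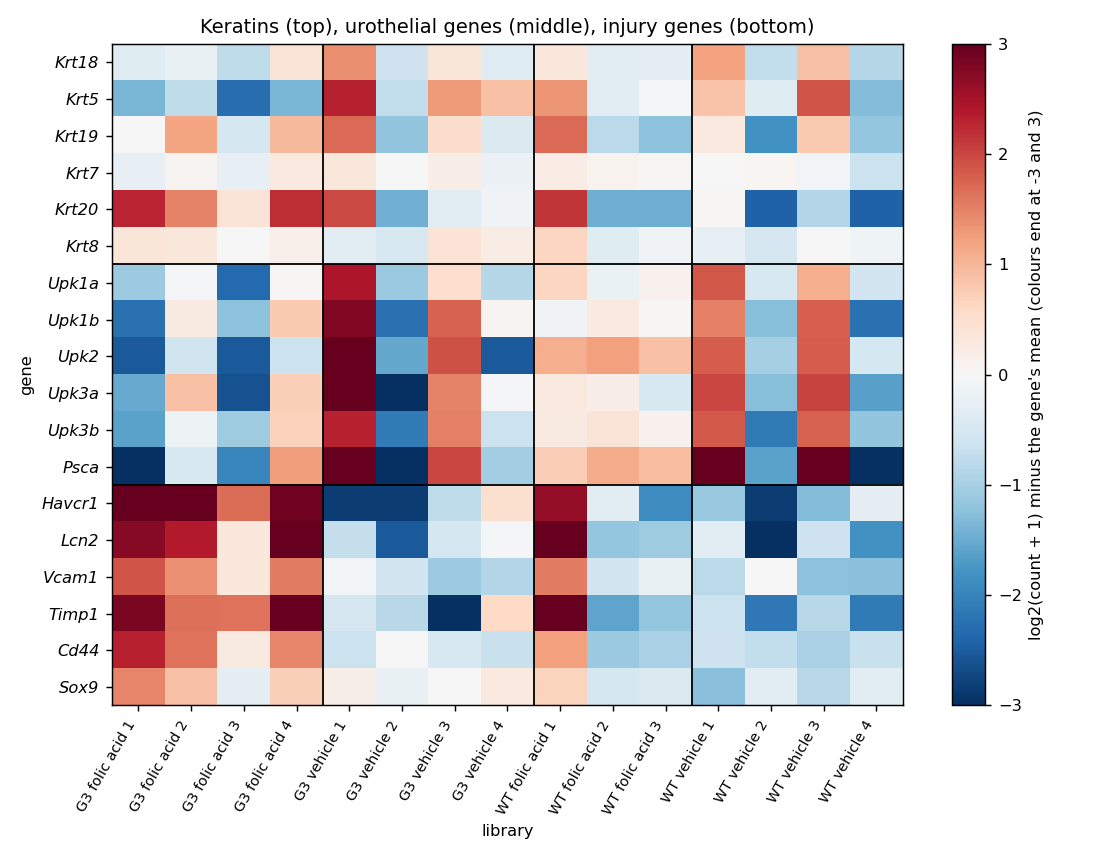
Level of each gene in each library relative to the gene's mean over 15 libraries (colour, difference in log2(normalised count + 1), with colours ending at -3 and 3). Columns are libraries by group, and rows are the 6 keratins, 6 urothelial genes and 6 of the 18 injury genes, picked for display. Krt18 is highest in G3 vehicle 1 and WT vehicle 1 and 3, as is the sum of the uroplakins, though not each uroplakin. Krt5 is high in those libraries and also in WT folic acid 1 and G3 vehicle 3 and 4. Krt20 and Havcr1 are both high in G3 folic acid 1, 2 and 4 and WT folic acid 1, while in G3 vehicle 1 Krt20 is high and Havcr1 has no read.

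The 3 genes most like each keratin among the other 14650 tested, by Pearson r of log2(normalised count + 1) over 15 libraries, differed from keratin to keratin. For Krt18 they were Fer1l4 (r = 0.94), Klf5 (0.94), a transcription factor of the KLF family, and Atp10b (0.92). Krt5 had Cldn15 (r = 0.92), a claudin of tight junctions, Fxyd3 (0.90) and Tbx3 (0.88), a T-box transcription factor. Nearest to Krt20 were Lgi2 (r = 0.92), Mmp19 (0.92), a matrix metalloproteinase, and Ahnak2 (0.91). Krt8 had the ribosomal protein gene Rpl15 (r = 0.93), Hs2st1 (0.92), a heparan sulfate sulfotransferase, and Hic1 (0.92). For Krt19 they were S100a6 (r = 0.93), a calcium-binding protein, Pfkfb3 (0.91), a regulator of glycolysis, and Ehd4 (0.90), and for Krt7 Zfhx3 (0.85), Gm16136 (0.84) and Ehd2 (0.84). With r taken as the highest of 14650, such values are descriptions only.

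Of the other keratins in the table, Krt10, Krt15, Krt23 and Krt80 passed the filter, and limma called 0 of these 4 in each of the 6 comparisons. Krt15, a type I keratin of basal cells, ranged from 0.977 to 56.7 and was log2 -0.35 with folic acid in G3 (-2.51 to 1.81, limma adjusted p = 0.927) and 0.91 in WT (-1.42 to 3.24, adjusted p = 0.668). Krt10, the type I keratin of cells leaving the basal layer of skin, had means of 14.0 ± 4.90 in G3 folic acid, 17.2 ± 6.95 in G3 vehicle, 6.61 ± 1.80 in WT folic acid and 16.0 ± 6.68 in WT vehicle (SD). Its value with folic acid in WT was log2 -1.10 (-1.97 to -0.23, limma adjusted p = 0.123). Krt23 was log2 1.24 in G3 relative to WT after vehicle (0.23 to 2.25, limma adjusted p = 0.175), and Krt80 was log2 -0.31 with folic acid in G3 (-0.94 to 0.31, adjusted p = 0.709). Krt14, the type I partner of Krt5, was at 0 to 5.67 with no read in 4 libraries.

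The lists that follow are set against calls for 0.273% of all genes with folic acid in G3 and 5.06% in WT, 2.30% between G3 and WT after folic acid and 2.90% after vehicle, 1.79% for the averaged effect and 3.82% for the difference of effects. In the urothelium list (24 genes, 17 in the table, 13 tested) limma called 0 with folic acid in G3, where the median was log2 -0.80 against -0.012 over all genes, and 3 of 13 lay above 0. With folic acid in WT the median was log2 0.18 and 1 gene fell, Snx31, a sorting nexin found with uroplakins in umbrella cells, at 10.2 ± 2.14 in WT folic acid and 63.9 ± 17.9 in WT vehicle (log2 -2.51, limma adjusted p = 0.0148). Snx31 was also lower in G3 vehicle than in WT vehicle (log2 -1.91, limma adjusted p = 0.0349), the pair of comparisons in which male kidney genes were lower, and both share the WT vehicle libraries. The difference of the folic acid effects was called for Snx31 (log2 3.17, limma adjusted p = 0.0163) and for Foxq1 (log2 -3.48, adjusted p = 0.0172). Mesothelium genes, which share Upk3b with the urothelium, gave 0 calls of 3 tested in each comparison. Their defining marker Msln was at 0 to 7.12, while Gpm6a was at 251 to 764 and Wt1, which podocytes also express, at 24.0 to 74.9.

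Of 18 injury genes 16 were tested. With folic acid in G3 1 rose, Clu (clusterin, log2 1.13, limma adjusted p = 0.0410), with a median of log2 0.73 and 13 of 16 above 0. With folic acid in WT 1 rose, Spp1 (osteopontin, log2 1.502, limma adjusted p = 0.0157), with a median of 0.73 and 16 of 16 above 0. The injury score was 7.47 in WT folic acid 1 but 5.88 and 5.82 in WT folic acid 2 and 3, against 5.38 to 5.79 in WT vehicle. Averaged over the genotypes 4 rose: Havcr1 (log2 2.91, limma adjusted p = 0.0402), Vcam1 (1.4997, adjusted p = 0.0331), Spp1 (1.17, adjusted p = 0.0308) and Clu (0.90, adjusted p = 0.0308). Spp1 was also higher in G3 than in WT after vehicle (log2 1.25, limma adjusted p = 0.0267), again against the shared WT vehicle libraries. Its means were 463 ± 128 in WT vehicle, 1092 ± 225 in G3 vehicle and 1331 ± 499 in WT folic acid (SD). The difference of the folic acid effects was called for Cdh6, a cadherin of tubules (log2 -2.17, limma adjusted p = 0.0370). Havcr1 was 21.98 to 80.8 in G3 folic acid, 0 to 9.02 in G3 vehicle, 0.953 to 44.2 in WT folic acid and 0 to 4.995 in WT vehicle.

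Of 16 collecting duct genes, all tested, 1 fell with folic acid in G3: Aqp4, a water channel of principal cells (log2 -1.73, limma adjusted p = 0.0377), with a median of log2 -0.37 and 1 of 16 above 0. With folic acid in WT 0 were called, and the median was log2 -0.058. After folic acid Aqp4 (log2 -2.31, limma adjusted p = 0.00684) and Slc4a1, the anion exchanger of intercalated cells (-1.01, adjusted p = 0.0332), were lower in G3 than in WT, and the difference of the folic acid effects was called for Aqp4 (-2.71, adjusted p = 0.00514). After vehicle 0 of 16 were called, as averaged over genotypes.

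A list of 19 proteins that anchor, bind or clear keratin filaments had 17 tested members. Of these, limma called 0 with folic acid in G3 (0.273% of all genes) and 3 with folic acid in WT (5.06%). In WT these were Dsg2, a desmosomal cadherin, which rose (log2 0.88, limma adjusted p = 0.0260), and Sqstm1, an autophagy receptor (-0.57, adjusted p = 0.0261), and Dnajb6, a chaperone known to bind KRT18 in human cells (-0.58, adjusted p = 0.0366), which fell. Between G3 and WT after vehicle Dsg2 was higher (log2 0.73, limma adjusted p = 0.0468) and Sqstm1 lower (-0.52, adjusted p = 0.0319), again against the shared WT vehicle libraries. Averaged over genotypes Sfn, a 14-3-3 protein that binds keratins, rose (log2 1.01, limma adjusted p = 0.0454). The difference of the folic acid effects was called for Dsg2 (log2 -1.33, limma adjusted p = 0.0133), Sqstm1 (0.82, adjusted p = 0.0193) and Pkp3, a plakophilin of desmosomes (1.07, adjusted p = 0.0444), and between G3 and WT after folic acid 0 were called. Medians of the partners lay between log2 0.021 and 0.15 in the 6 comparisons.

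Of other intermediate filament genes (15 listed, 8 tested), the muscle filament desmin, Des, rose by log2 0.76 (limma adjusted p = 0.0387) and lamin A, Lmna, by 0.40 (adjusted p = 0.0461), both averaged over genotypes, and 0 were called in the other 5 comparisons. Among 10 proximal tubule genes limma called 0 with folic acid in G3 and 1 in WT, Slc22a6, an organic anion transporter (log2 -1.4997, adjusted p = 0.0246). Slc22a6 was also lower in G3 than in WT after vehicle (log2 -1.30, limma adjusted p = 0.0349), against the same WT vehicle libraries, where Cubn, an endocytic receptor, was higher (0.57, adjusted p = 0.0499). After folic acid Lrp2, the receptor megalin, was lower in G3 than in WT (log2 -1.07, limma adjusted p = 0.0205). The difference of the folic acid effects was called for Slc22a6 (log2 2.36, limma adjusted p = 0.0109) and Lrp2 (-1.21, adjusted p = 0.0273), and averaged over genotypes 0 were called.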

How the data were processed

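RNA of 15 kidney libraries was measured by QuantSeq, which per the labels' protocols is stranded and reads 3' ends. The tools, taken from the submitters' processing notes, were FastQC 0.11.7, TopHat2 2.0.10, Bowtie 1.0.0, SAMtools 0.1.19, HTSeq 0.6.1 and DESeq2 on GRCm38, with no annotation release stated. The deposited unit is a signal, gene counts over a size factor set by the authors for each library, as the values show. All values are whole multiples (within 0.001) of 0.895 to 1.13, and dividing by this step gave whole reads.

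The 14651 genes that reached 10 in 3 libraries or more were tested on log2(normalised count + 1) with limma 3.58.1 (R 4.3.3, mean-variance trend, a term per group, BH, calls at adjusted p under 0.05). Labelled sex was left out because Xist and Y-linked RNA went against it. edgeR 4.0.16 and DESeq2 1.42.0 on the recovered reads, other filters, scalings, pseudocounts and covariates, and leaving out each library were alternatives. The fit was tested on simulated data. The members, gene lists and tests were chosen with earlier results of these data known. Genes named besides the members are, per list, the called genes of smallest p (at most 4), and per keratin the 3 most like it. Libraries were counted as separate animals on the labels alone, so p-values measure the spread between these libraries. Krt5 and Krt20 rest on few reads per library and so carry large counting error.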

Additional observations from a re-analysis of the deposited data

Results flagged for a closer look

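Krt20 stood out in G3 vehicle 1, which had 20.3 normalised counts (20 reads), against 0.977, 3.25 and 4.01 in G3 vehicle 2, 3 and 4. The gap to the next library made up 0.843 of the group's range. Of 18 groups of 4 libraries checked for the 6 keratins 1 was picked out in this way, and chance picks out about 1 in 20. The same library held the highest Krt18 (189) and Krt5 (23.4) of all libraries and the highest uroplakin sum (505), and its part in these values was not tested. WT folic acid has 3 libraries and was not checked, although WT folic acid 1 was the highest of that group for all 6 keratins.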

How the results depend on the processing

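Over 33 other settings limma, edgeR or DESeq2 called 1 keratin in 1170 single results, Krt5 with folic acid in G3 under DESeq2 (log2 -3.57), so that comparison counted 1 keratin there. The share of all genes called by DESeq2 is not given beside it. All other counts of called keratins stayed 0. Of 540 fits without 1 library 39 turned a sign, as did 57 of 630 others, and 0 of these 96 were called. No paired analysis was possible because replicate numbers follow accession order. The number of genes called over the table ran from 0 to 1309 across settings, so the background share is itself unstable. The cause of each turn was not tested.

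Turned values are log2, for folic acid in G3 (a), folic acid in WT (b), G3 against WT after folic acid (c) or vehicle (d), the averaged effect (e) and the difference of effects (f). DESeq2 gave Krt20 f -1.10 and Krt5 b -0.28, edgeR Krt20 f -0.98 and Krt5 b -0.29. Labelled sex gave Krt20 f -0.14, a pseudocount of 5 Krt5 b -0.048 and quantile scaling Krt5 b -0.25. The Y-linked share gave Krt7 a 0.12, b -0.12, c 0.086, d -0.16 and f 0.24, Krt18 b 0.036, Krt5 b -0.16 and Krt20 f -0.43. With edgeR it gave Krt7 a 0.13, b -0.12, c 0.10, d -0.15 and f 0.25 and Krt20 f -1.62. Without the 2 libraries of mixed sex RNA the Y-linked share gave Krt7 b -0.046, d -0.083, e -0.025 and f 0.044, Krt19 b -1.88, d -1.64, e -0.41 and f 2.93, Krt5 b -1.58 and d -0.99, Krt18 d -0.69 and f 0.57 and Krt8 d -0.088 and f 0.35. Leaving out those 2 alone gave Krt5 b -0.17, Krt19 b -0.078, e -0.0047 and f 0.15, Krt18 d -0.22 and Krt8 f 0.094. The title number series gave Krt5 b -0.48 and c 0.33, Krt18 a 0.16, c 1.16 and f 0.69, Krt7 a 0.15, c 0.50 and f 0.021, Krt8 a -0.0026 and Krt19 f 0.69. The uroplakin mean gave Krt18 a 0.13, c 0.39 and f 0.36, Krt7 a 0.0071, Krt8 f 0.042 and Krt19 f 0.67. The Y-linked share with edgeR, the share without those 2 libraries and the uroplakin mean were chosen after seeing the data.

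Leaving out each library gave Krt18 b -0.54 to 0.16, c -0.36 to 0.051, d -0.34 to 0.43 and f -0.58 to 0.19. For Krt19 it gave a -0.19 to 0.77, b -0.54 to 0.93, c -0.044 to 1.42, e -0.14 to 0.59 and f -0.67 to 0.79. Krt20 ran b -0.034 to 1.77 and f -0.19 to 1.61, Krt5 b -0.48 to 0.58, and Krt8 b -0.013 to 0.49, c -0.052 to 0.45 and f -0.23 to 0.27. With reads scaled to library totals in place of size factors 23 of 24 group means moved by less than 1 SD, and Krt7 in WT folic acid was 438. Krt5 and Krt20 had 0 to 28 reads a library, which limits both.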
